A study of Mus musculus with 16 samples.

Results

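The respiratory complexes II to V carry electrons from succinate and ubiquinol to oxygen and use the resulting proton gradient to make ATP. Transcripts of their subunits were followed in kidney slices of mice with and without the insulin receptor-related receptor. Members were the rows of the RPKM table, which scale reads by transcript length and library size, whose symbol was Sdha, Sdhb, Sdhc, Sdhd or Cyc1, or began with Uqcr, Cox4, Cox5, Cox6, Cox7, Cox8, Atp5, mt-Co, mt-Cytb or mt-Atp. This rule took 51 of 13430 genes, of which 6 are encoded in the mitochondrial genome and 45 in the nucleus. They comprise 4 genes of complex II, 10 of complex III, 18 of complex IV and 19 of complex V. All 51 passed the filter on low values (4 libraries or more at an RPKM of 0.5 or above) and were tested.

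The 16 libraries came from 16 female C57BL/6 mice aged 2 to 3 months, 1 library per animal. RNA came from the middle section of the kidney, cut 3 mm thick. The 4 groups held 4 animals each. They were wild-type mice on plain water (WT water), wild-type mice given 250 mM sodium bicarbonate at pH 8.5 for 7 days in their drink (WT bicarbonate), and IRR(-/-) mice on each of the same drinks (KO water and KO bicarbonate). All animals had fasted for 12 h. IRR, encoded by Insrr, is related to the insulin receptor and is known as a sensor of alkaline extracellular pH. The labels do not say which part of the gene was deleted, whether the wild-type mice were littermates, or which date or batch a library belongs to. Genotype and any such unlabelled batch therefore cannot be told apart.

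Oxidative phosphorylation complexes are built from products of both genomes. The mitochondrial genome gives the catalytic core of cytochrome c oxidase (complex IV), cytochrome b of complex III and the a and 8 subunits of ATP synthase (complex V), whereas complex II is wholly nuclear. Proximal tubule and thick ascending limb cells of the kidney are rich in mitochondria and pay for sodium reabsorption with this ATP. Many small nuclear subunits surround the catalytic cores, stabilise them or adapt them to a tissue.

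Insrr was detected in all 16 libraries, at lower levels in those labelled knockout. Its RPKM was 4.82 to 6.73 in WT water, 4.20 to 6.5 in WT bicarbonate, 3.3 to 4.11 in KO water and 3.31 to 3.71 in KO bicarbonate. Knockout and wild-type libraries did not overlap on either drink, at -0.69 on the log2 scale for water (SE 0.13, limma adjusted p = 0.00180) and -0.49 for bicarbonate (adjusted p = 0.0182). Library sums of RPKM ran from 1358770 to 1602927 in wild type and from 2415152 to 2927108 in the knockout, while the medians over genes lay between 8.44 and 8.92. The library WT bicarbonate 3 stood apart on the second principal component (-50.8, the others between -21.8 and 22.1). The depth in reads is unknown, since the deposited values hold no counts.

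The genes mt-Atp8 and mt-Atp6 overlap, which bears on how their reads are counted. By the GENCODE M21 annotation of GRCm38, mt-Atp8 lies at chrM:7766-7969 on the plus strand (204 nt) and mt-Atp6 at chrM:7927-8607 (681 nt). They share 43 nt, 21.1% of mt-Atp8, and mt-Atp6 and mt-Co3 (chrM:8607-9390) share 1 nt. The whole mt-Atp8 gene is shown with the bases it shares with mt-Atp6 in capitals.
mt-Atp8: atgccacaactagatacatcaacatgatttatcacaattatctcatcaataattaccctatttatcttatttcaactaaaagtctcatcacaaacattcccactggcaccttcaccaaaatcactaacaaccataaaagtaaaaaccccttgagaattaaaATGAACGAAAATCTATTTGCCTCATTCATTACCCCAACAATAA

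The nuclear members carry promoters in which binding sequences of NRF1, ETS factors such as GABP, and estrogen-related receptors (ERR) are known. Of the 45 nuclear members, 30 had 1 entry in the RefSeq promoter table of GRCm38.p6, which runs from 250 bases before to 50 after the start. On either strand, the NRF1 letters GCATGCGC were in 7 of these 30 (23.3%), against 2.71% of all 32817 promoters in the table. The ETS letters CCGGAAG were in 11 (36.7%, against 8.86%), the ERR letters AAGGTCA in 5 (16.7%, against 4.72%) and the YY1 letters ATGGCGGC in 0 (against 2.24%). The sequences shown are the 120 bases before the start of Atp5l and Cox7c, the nuclear members with a promoter entry that were furthest above and below wild type on water, and of Atp5k, which had the highest difference among those with an NRF1 match in this stretch. Capitals mark the ERR letters read on the reverse strand in Atp5l and 2 overlapping NRF1 matches, 1 per strand, in Atp5k. Cox7c held none of the 4 motifs in its whole window. The stretches lie at chr9:44920743-44920862, chr13:86046796-86046915 and chr5:108434400-108434519, all on the minus strand, and the RefSeq starts of Cox7c and Atp5k lie inside the genes as GENCODE draws them.
Atp5l: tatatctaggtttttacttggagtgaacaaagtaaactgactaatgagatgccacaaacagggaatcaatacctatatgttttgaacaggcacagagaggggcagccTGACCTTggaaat
Cox7c: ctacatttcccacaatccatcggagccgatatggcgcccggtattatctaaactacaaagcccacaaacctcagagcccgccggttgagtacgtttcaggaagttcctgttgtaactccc
Atp5k: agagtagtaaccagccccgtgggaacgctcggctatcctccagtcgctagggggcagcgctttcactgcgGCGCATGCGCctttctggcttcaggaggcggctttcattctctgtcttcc

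Subunit transcripts differed between the genotypes in both directions, with more of them higher in the knockout. On water, 30 of the 51 members were higher in the knockout and 5 were lower (limma on log2(RPKM + 0.1), Benjamini-Hochberg adjusted p under 0.05 over all 12943 genes tested). Over all genes tested, 10.1% were higher and 11.8% lower. The median log2 difference was 0.51 over the members and -0.05 over all genes. On bicarbonate, in separate animals, 21 members were higher and 5 lower, against 9.03% and 9.36% of all genes, and the median was 0.23 over the members and -0.02 over all genes. Higher calls on both drinks numbered 21 and lower calls 4, while 10 members passed on water only and 1 on bicarbonate only, and none passed in opposite directions. Knockout and wild-type libraries did not overlap for 32 members above and 4 below wild type on water (23.8% of all genes, either direction) and for 21 above and 6 below on bicarbonate (22.8%).

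The way the values are scaled moved the balance of these calls, most under quantile normalization and little otherwise. With quantile normalization the members split into 22 higher and 9 lower on water and 16 and 9 on bicarbonate. By its construction that method leaves little room for a difference in the 6 mitochondrial members, as described below, and none of them passed as higher. On water, median-of-ratios scaling gave 33 higher and 4 lower members. With every library brought to the same sum over nuclear genes the members split into 29 higher and 6 lower on water and 20 and 6 on bicarbonate. The same scaling moved all genes from 1303 higher and 1530 lower to 937 and 2473 on water (median -0.14), and from 1169 and 1212 to 913 and 1561 on bicarbonate. In RNA of a kidney slice, a change in the number of cells of a type and a change in RNA per cell cannot be told apart.

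**Figure D1:**
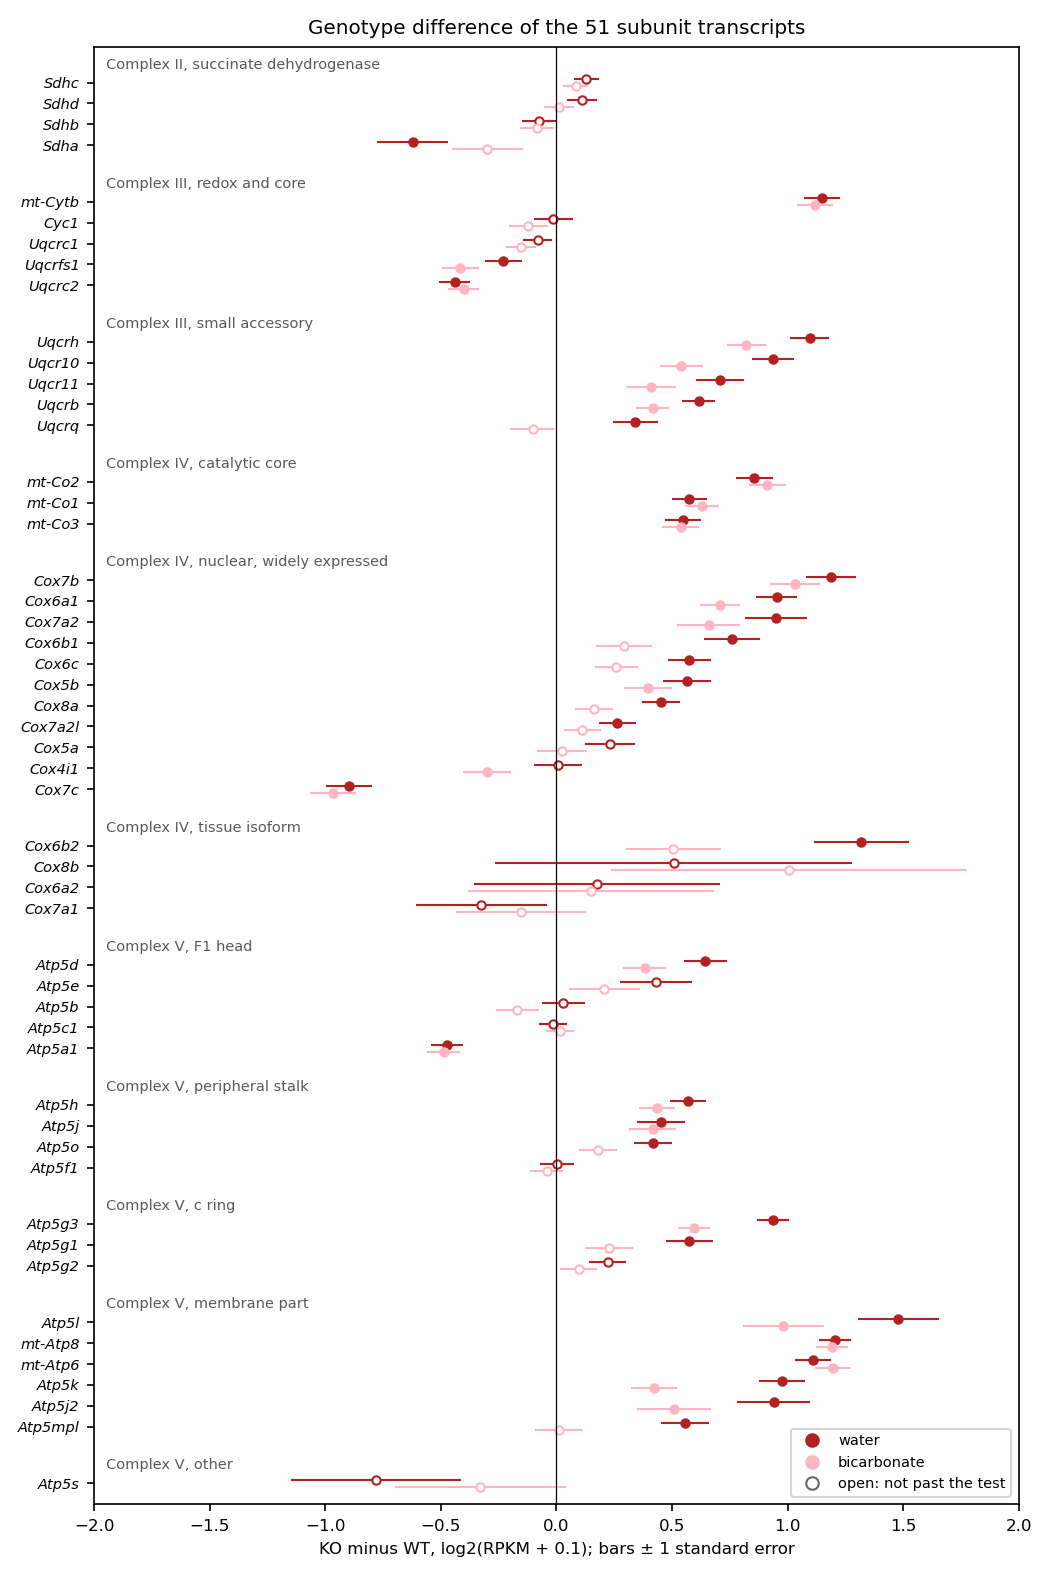
Log2 difference between knockout and wild type for each of the 51 subunit transcripts, on water (dark red) and on bicarbonate (pale red), with bars of 1 standard error; filled points passed the adjusted p of 0.05 and open points did not. The 6 mitochondrial members lie between 0.54 and 1.21 on both drinks, the 5 small accessory subunits of complex III lie above its nuclear core subunits on water, and Cox7c is the lowest member at -0.90 on water and -0.97 on bicarbonate.

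All 6 mitochondrially encoded members were higher in the knockout on both drinks, and for none did the knockout and wild-type libraries overlap on either drink. Under quantile normalization none of them passed as higher. Because mitochondrial genes hold the top ranks in every library, that method by its construction gives each rank the same value in every library, so only a change of rank among them leaves a difference. Their median log2 difference was 0.98 on water and 1.02 on bicarbonate, against 0.43 and 0.16 for the 45 nuclear members.

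mt-Cytb (chrM:14145-15288) encodes cytochrome b, the heme-bearing core of complex III that oxidises ubiquinol. Its RPKM in replicates 1 to 4 was 23934, 24900, 24525 and 23648 in WT water and 48216, 56327, 55104 and 55832 in KO water. In WT bicarbonate it was 21223, 21731, 25752 and 20447, and in KO bicarbonate 45673, 51534, 50497 and 45558. The lowest knockout library was above the highest wild-type library by a wide margin, at log2 differences of 1.15 on water (SE 0.07, limma adjusted p = 1.30e-07) and 1.12 on bicarbonate (adjusted p = 1.87e-07).

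mt-Co1 (chrM:5328-6872), which carries the oxygen-reducing centre of cytochrome c oxidase, had a smaller difference. Its mean RPKM was 51002 ± 1925 in WT water, 46974 ± 4203 in WT bicarbonate, 76057 ± 4465 in KO water and 72650 ± 5485 in KO bicarbonate (SD, n = 4 each). That is a log2 difference of 0.58 (SE 0.07, limma adjusted p = 4.92e-05) on water and 0.63 on bicarbonate. mt-Co2 (chrM:7013-7696), which takes electrons from cytochrome c, stood at 51604 ± 1914 and 46494 ± 5670 in wild type on water and bicarbonate and at 93477 ± 4295 and 87264 ± 6632 in the knockout. Its log2 difference was 0.86 on water and 0.91 on bicarbonate. mt-Co3, the third core subunit, had 41410 ± 1773 and 38589 ± 3522 in wild type and 60559 ± 3874 and 55930 ± 4134 in the knockout, at 0.55 and 0.54 on the log2 scale. Under quantile normalization mt-Co3 was lower in the knockout, at -0.46 on both drinks, and mt-Cytb was lower on bicarbonate, at -0.16.

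mt-Atp6 encodes the a subunit, which forms the proton path of ATP synthase. It had an RPKM of 54588 ± 2929 in WT water, 48286 ± 5347 in WT bicarbonate, 117748 ± 5208 in KO water and 110421 ± 7558 in KO bicarbonate, which gave log2 differences of 1.11 on water and 1.20 on bicarbonate. mt-Atp8, a small subunit of the membrane part, had by far the highest level per length of the members. In WT water it stood at 679224, 726514, 726390 and 640701 RPKM and in KO water at 1595770, 1660740, 1490020 and 1644860. In WT bicarbonate the values were 588811, 641152, 675328 and 655036, and in KO bicarbonate 1515850, 1502370, 1529040 and 1305170. The log2 difference of mt-Atp8 was 1.21 on water and 1.19 on bicarbonate (SE 0.06, limma adjusted p = 1.85e-08 and 1.91e-08). After a trend with transcript length and GC content was removed from every library, it was 0.06 on water and 0.10 on bicarbonate and did not pass; with the length of the principal transcript it was 0.20 on both. The other 5 mitochondrial members stayed higher under both of these corrections.

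**Figure D2:**
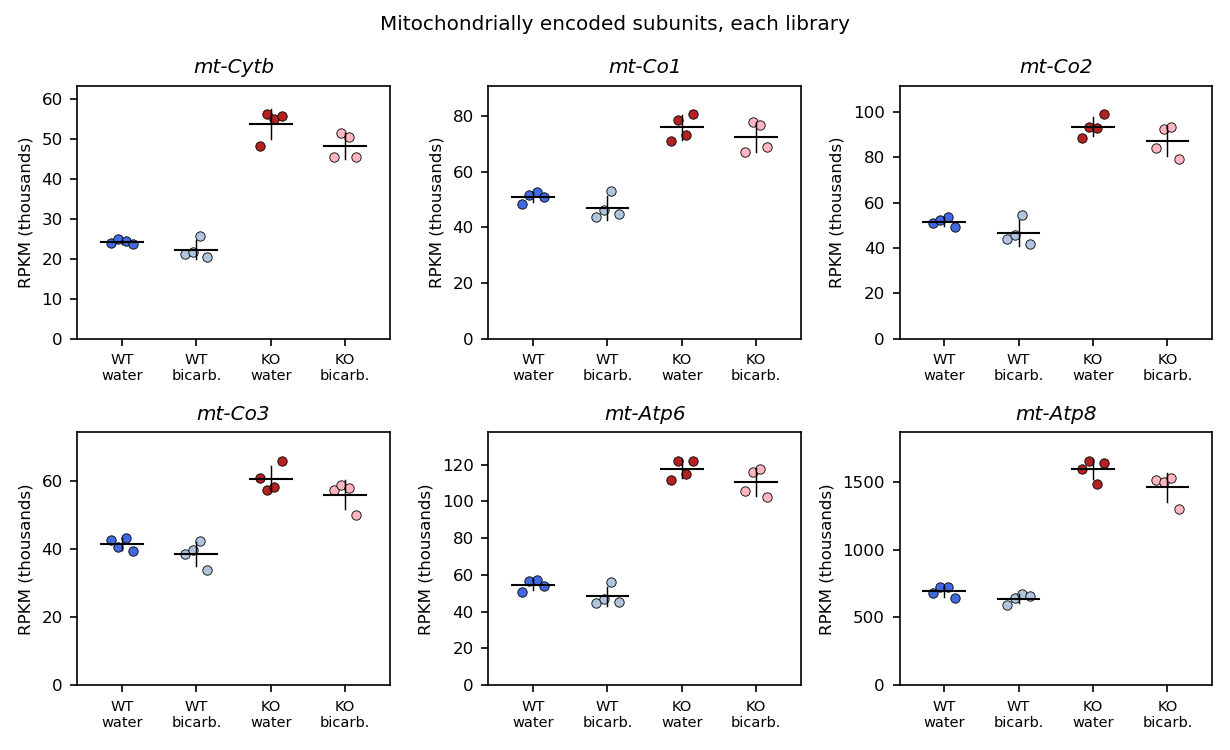
RPKM (axis in units of 1000) of the 6 mitochondrially encoded subunits in each of the 16 libraries (points), with the mean (horizontal line) and SD (vertical line) of each group of 4. Every knockout library lies above every wild-type library for each of the 6 genes, with the smallest separation for mt-Co3.

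The mitochondrial transcripts also shifted relative to each other, as seen in ratios within a library, which no scaling of whole libraries changes. The ratio of mt-Cytb to mt-Co1 was 0.476 ± 0.0147 in WT water and 0.474 ± 0.0137 in WT bicarbonate, and 0.708 ± 0.0326 and 0.665 ± 0.0107 in the knockout (SD, n = 4 each). Wild type and knockout did not overlap in this ratio (wild type up to 0.495, knockout from 0.657). The ratio of mt-Atp6 to mt-Co3, neighbours on the same strand, was 1.32 ± 0.0901 and 1.25 ± 0.0907 in wild type and 1.95 ± 0.134 and 1.98 ± 0.0920 in the knockout, also without overlap. The mt-Co2 to mt-Co1 ratio was 1.01 and 0.988 in wild type and 1.23 and 1.20 in the knockout. The mt-Co3 to mt-Co1 ratio overlapped between all groups, at 0.813, 0.823, 0.797 and 0.771 in WT water, WT bicarbonate, KO water and KO bicarbonate. These ratios are given as descriptions without a test.

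Mitochondrial and nuclear subunits were then compared by their summed RPKM in each library. The 6 mitochondrial members summed to 916062 ± 47937 in WT water, 842712 ± 51454 in WT bicarbonate, 2.00e+06 ± 88087 in KO water and 1.84e+06 ± 126044 in KO bicarbonate. The 45 nuclear members summed to 14371 ± 721, 14659 ± 1054, 18090 ± 862 and 16241 ± 1067 in the same order. The mitochondrial sum was 64.0 ± 6.31 times the nuclear sum in WT water and 57.6 ± 3.11 times in WT bicarbonate, and 111 ± 7.00 and 113 ± 7.45 times in the knockout. No knockout library overlapped a wild-type library in this ratio (wild type up to 69.9, knockout from 104). Since mt-Atp8 alone made up 45.0% of all summed RPKM in WT water and 56.3% in KO water, the ratio was also formed without it. It was then 15.6 ± 1.25, 13.8 ± 0.639, 22.2 ± 1.02 and 23.1 ± 2.16, again with no overlap (wild type up to 16.7, knockout from 20.3).

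Complex II, which oxidises succinate and is the one complex here with no mitochondrially encoded subunit, showed no higher calls. Sdha, the flavoprotein that binds succinate, was lower in the knockout on water, at 359, 478, 665 and 348 RPKM in WT water and 297, 281, 280 and 303 in KO water. Every KO water library was below every WT water library, and the WT water group was spread widely (463 ± 147). It differed by -0.62 on the log2 scale (SE 0.15, limma adjusted p = 0.00798). On bicarbonate, 313, 322, 353 and 306 in wild type stood against 286, 254, 265 and 247 in the knockout, a log2 difference of -0.30 that did not pass (adjusted p = 0.186), although the libraries did not overlap. It passed without WT water 3, whose Sdha was the highest (adjusted p = 0.0347), and when the bicarbonate groups were fitted alone (adjusted p = 0.0253). The iron-sulfur subunit Sdhb and the membrane anchors Sdhc and Sdhd passed on neither drink, with log2 differences from -0.08 to 0.13.

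In complex III, the small accessory subunits and the nuclear redox and core subunits had calls of opposite sign, a difference between subgroups that was not tested. All 5 small accessory genes (Uqcrh, Uqcr10, Uqcr11, Uqcrb and Uqcrq) were higher in the knockout on water and 4 of 5 on bicarbonate. Of the 4 nuclear redox and core genes, Uqcrc2 and Uqcrfs1 were lower on both drinks, and Cyc1, cytochrome c1, and Uqcrc1, a core protein, passed on neither. Uqcrh, the hinge protein that contacts cytochrome c1, had 302, 249, 257 and 311 RPKM in WT water and 565, 572, 578 and 670 in KO water. In WT bicarbonate it had 305, 309, 347 and 296 and in KO bicarbonate 568, 552, 567 and 531. The groups did not overlap, at log2 differences of 1.10 on water (SE 0.08, limma adjusted p = 4.08e-07) and 0.82 on bicarbonate (adjusted p = 9.82e-06).

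Uqcr10, a small membrane subunit, rose from 256 ± 27.9 to 490 ± 33.6 RPKM on water and stood at 272 ± 24.0 in WT bicarbonate and 395 ± 30.3 in KO bicarbonate (log2 differences 0.94 and 0.54). Uqcr11 had 182 ± 9.45 and 195 ± 25.6 in wild type on water and bicarbonate and 298 ± 22.3 and 260 ± 33.9 in the knockout (0.71 and 0.41), and its bicarbonate groups overlapped. After correction for length and GC by the principal transcript Uqcr11 passed on neither drink (0.11 and 0.09, limma adjusted p = 0.311 and 0.401), and by the longest transcript not on bicarbonate (0.20, adjusted p = 0.0693). Uqcrq passed on water (388 ± 43.2 against 489 ± 17.4, log2 difference 0.34, limma adjusted p = 0.0169). On bicarbonate it was 429 ± 28.2 against 402 ± 54.7, a log2 difference of -0.10 (adjusted p = 0.492). The call on water was lost without WT water 2 or 3 (adjusted p = 0.0561 and 0.0537). Uqcrb, which binds near the quinone site, was higher on both drinks (372 ± 26.6 to 570 ± 36.2 on water, 383 ± 25.0 to 510 ± 21.8 on bicarbonate). On bicarbonate its difference of 0.42 was 0.04 and 0.08 after the corrections by longest and principal transcript and did not pass (adjusted p = 0.587 and 0.230).

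Uqcrc2, the second core protein, was lower in the knockout, at 406, 406, 398 and 402 RPKM in WT water against 282, 283, 294 and 331 in KO water, with no overlap. Its log2 difference was -0.44 on water (SE 0.06, limma adjusted p = 0.000180) and -0.40 on bicarbonate (adjusted p = 0.000512), where 375 ± 26.8 stood against 283 ± 12.4. Uqcrfs1, the Rieske iron-sulfur protein, was 209 ± 18.6 in WT water and 178 ± 11.6 in KO water (-0.23, adjusted p = 0.0401, groups overlapping) and 215 ± 14.3 and 161 ± 10.6 on bicarbonate (-0.42, adjusted p = 0.00143, no overlap). The call on water was lost when WT water 1 or 4, KO water 1, 2 or 3, or KO bicarbonate 3 was left out, with adjusted p up to 0.116. The ratio of mt-Cytb to Uqcrfs1, the subunits on either side of the ubiquinol site, was 117 ± 12.7 and 104 ± 5.16 in wild type and 304 ± 27.6 and 302 ± 32.6 in the knockout.

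Nuclear subunits of complex IV were mostly higher on water, with Cox7c as the exception. Of the 11 widely expressed ones, 8 were higher and 1 lower on water and 4 were higher and 2 lower on bicarbonate. Cox7b (chrX:106015700-106022450), a small transmembrane subunit, had 805, 569, 665 and 735 RPKM in WT water and 1435, 1444, 1691 and 1725 in KO water. On bicarbonate it had 747, 732, 698 and 680 in wild type and 1683, 1327, 1478 and 1377 in the knockout. Knockout libraries were all above wild type, at log2 differences of 1.19 (SE 0.10, limma adjusted p = 2.22e-06) and 1.03 (adjusted p = 1.21e-05). Cox7c (chr13:86044816-86046904), a small transmembrane subunit too, had the opposite sign, at 1005, 853, 831 and 1010 in WT water and 453, 506, 462 and 562 in KO water. Its values were 800, 883, 1073 and 875 in WT bicarbonate and 468, 473, 456 and 449 in KO bicarbonate. No knockout library reached the lowest wild-type library, and the log2 differences were -0.90 (SE 0.09, adjusted p = 1.34e-05) and -0.97 (adjusted p = 9.06e-06). Cox7c therefore stood above Cox7b in wild type, at 1.34 ± 0.120 and 1.28 ± 0.195 times its RPKM, and below it in the knockout, at 0.316 ± 0.0323 and 0.317 ± 0.0327 times.

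Cox6a1, the broadly expressed form of subunit VIa, had 510 ± 39.8 RPKM in WT water and 986 ± 39.9 in KO water, and 564 ± 75.3 and 916 ± 34.4 on bicarbonate (log2 differences 0.95 and 0.71, no overlap on either drink). Cox7a2, the broadly expressed form of subunit VIIa, had 143 ± 5.57 and 277 ± 22.0 on water and 154 ± 29.2 and 243 ± 46.1 on bicarbonate (0.95 and 0.66). Cox5b, the zinc-binding subunit, was higher by 0.57 on water (363 ± 24.1 against 538 ± 46.0) and by 0.39 on bicarbonate (399 ± 63.6 against 521 ± 42.9). Cox8a, one of the smallest subunits, passed on water (750 ± 52.4 against 1025 ± 40.0, log2 difference 0.45) and not on bicarbonate (784 ± 99.1 against 873 ± 33.2, limma adjusted p = 0.175). Cox6b1 and Cox6c, small subunits at the surface and in the membrane, also passed on water only (185 ± 27.3 to 313 ± 32.8 and 438 ± 36.4 to 651 ± 25.8), and Cox5a, a matrix-side subunit, on neither drink. With either length correction the Cox8a difference on water was -0.05 or -0.02 and did not pass.

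Cox7a2l, which helps join complexes III and IV into supercomplexes, passed on water only (101 ± 3.92 against 121 ± 7.87 RPKM, log2 difference 0.26, limma adjusted p = 0.0219). Without WT water 2 or 4 or KO water 1, 2 or 4 it no longer passed, at adjusted p from 0.051 to 0.062. Cox4i1, the subunit around which assembly of the nuclear shell starts, did not pass on water (567 ± 48.1 against 570 ± 52.3), where it was lower after either length correction (-0.31 and -0.28). On bicarbonate it was lower (638 ± 79.2 against 517 ± 55.3, -0.30, adjusted p = 0.0470, groups overlapping). That call was lost without any 1 of 11 of the 16 libraries, the exceptions being WT water 1, WT bicarbonate 2 and 4, KO water 1 and KO bicarbonate 1.

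The 4 tissue isoforms of complex IV were at low levels. Cox6b2, the testis form of subunit VIb, was 10.2, 10.2, 15.1 and 17.8 RPKM in WT water and 21.4, 20.6, 37.9 and 29.3 in WT bicarbonate. In the knockout it was 37.9, 29.0, 32.9 and 30.6 on water and 33.3, 36.3, 42.8 and 38.7 on bicarbonate. WT water was the group apart, below all libraries of the other 3 groups. The genotype difference passed on water (1.32, SE 0.20, limma adjusted p = 0.000310) and not on bicarbonate (0.51, adjusted p = 0.0967), where it passed without WT bicarbonate 3 (0.68, adjusted p = 0.0240). Cox8b, Cox6a2 and Cox7a1, the heart and skeletal muscle forms, passed in no comparison. With either length correction Cox7a1 passed as lower on water, where its difference of -0.32 became -0.90 and -0.998 (limma adjusted p = 0.0347 and 0.0217). Cox8b ranged from 2.52 to 54.3 RPKM between libraries. It was highest in KO bicarbonate 1, where the 5 measured markers of adipose tissue summed to 549 RPKM against 68.4 to 97.9 in the other 3 libraries of that group. In WT water it was highest in WT water 1 (28.7), where these markers summed to 686 against 104 to 208. In the other two groups the highest libraries differed. In KO water Cox8b was highest in library 3 (28.7, adipose sum 269) and the adipose sum in library 4 (299.8, Cox8b 18.2). In WT bicarbonate Cox8b was highest in library 1 (15.1, adipose sum 395) and the adipose sum in library 3 (518, Cox8b 12.7). Cox8b is also known in brown fat, and the part of adipose tissue in these values was not tested.

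In complex V the membrane part was mostly higher and the catalytic head mixed; the difference between the subgroups was not tested. All 6 genes of the membrane part were higher on water and 5 of 6 on bicarbonate. These counts include the mitochondrially encoded mt-Atp6 and mt-Atp8 described above. The 5 genes of the F1 head, all nuclear, had 1 higher and 1 lower on each drink. Atp5l (chr9:44912557-44920742), the g subunit of the membrane part, had 67.9, 48.8, 43.9 and 58.0 RPKM in WT water and 182, 116, 160 and 151 in KO water. On bicarbonate it had 72.8, 71.8, 58.2 and 68.4 in wild type and 185, 114, 128 and 117 in the knockout. The lowest knockout value lay above the highest wild-type value on each drink, at log2 differences of 1.48 (SE 0.17, limma adjusted p = 2.82e-05) and 0.98 (adjusted p = 0.00112). Atp5k, the e subunit that pairs with g at the dimer interface, had 150 ± 21.8 in WT water and 294 ± 11.8 in KO water (0.98). Atp5j2, the f subunit, had 72.0 ± 15.1 and 136 ± 11.9 (0.94), and Atp5mpl, a small proteolipid, 173 ± 22.0 and 254 ± 15.1 (0.56). The call of Atp5mpl was lost with either length correction (0.12 and 0.15, limma adjusted p = 0.289 and 0.171). On bicarbonate Atp5k and Atp5j2 passed, at 0.42 and 0.51, and Atp5mpl did not, at 0.01. The call of Atp5j2 on bicarbonate was lost without WT bicarbonate 2 or 3 or KO bicarbonate 1 or 2 (adjusted p from 0.0574 to 0.0945), and that of Atp5k with either length correction (0.17 and -0.00035).

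Of the F1 head, Atp5a1, the alpha subunit, was lower in the knockout, at 1000, 1061, 1084 and 1112 RPKM in WT water and 723, 750, 752 and 844 in KO water. In WT bicarbonate it had 938, 968, 1144 and 992 and in KO bicarbonate 708, 701, 738 and 729. The groups did not overlap on either drink, at log2 differences of -0.47 (SE 0.07, limma adjusted p = 0.000158) and -0.49 (adjusted p = 0.000179). Its catalytic partner Atp5b, the beta subunit, did not pass on either drink (1719 ± 24.4 against 1759 ± 161 on water, 1772 ± 199 against 1573 ± 156 on bicarbonate). The ratio of Atp5a1 to Atp5b was 0.620 ± 0.0317 and 0.572 ± 0.0276 in wild type and 0.437 ± 0.0150 and 0.461 ± 0.0565 in the knockout, and overlapped slightly on bicarbonate. Atp5d, the delta subunit of the central stalk, was the one higher gene of the head, at 167 ± 16.7 against 260 ± 7.91 on water (0.64) and 183 ± 20.6 against 237 ± 18.8 on bicarbonate (0.38). The central stalk genes Atp5c1 (gamma) and Atp5e (epsilon) did not pass.

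The peripheral stalk holds the head still while the ring turns. Of its 4 genes, Atp5h, Atp5j and Atp5o were higher on water and Atp5h and Atp5j on bicarbonate (Atp5h from 313 ± 16.8 to 464 ± 30.7 RPKM on water), and Atp5f1 (subunit b) passed on neither drink (log2 differences 0.00 and -0.04). Atp5j had 267 ± 22.1 RPKM in WT water and 365 ± 27.7 in KO water, and 250 ± 29.9 and 334 ± 38.0 on bicarbonate (0.45 and 0.42). Atp5o, the oligomycin sensitivity protein, had 245 ± 18.9 and 328 ± 25.0 on water (0.42, limma adjusted p = 0.00142) and 275 ± 22.6 and 311 ± 20.1 on bicarbonate (0.18, adjusted p = 0.129). The proton-carrying c ring is made from 3 genes that encode the same mature protein. Atp5g3 was higher on both drinks, from 467 ± 36.0 to 893 ± 33.5 on water (0.94, adjusted p = 1.88e-07) and from 509 ± 24.0 to 770 ± 44.6 on bicarbonate (0.60), Atp5g1 on water only (0.57), and Atp5g2 on neither. Atp5s, an associated factor that the Atp5 prefix takes in, had 10.1 ± 1.60 RPKM in WT water and 6.30 ± 3.19 in KO water and passed on neither drink.

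**Figure D3:**
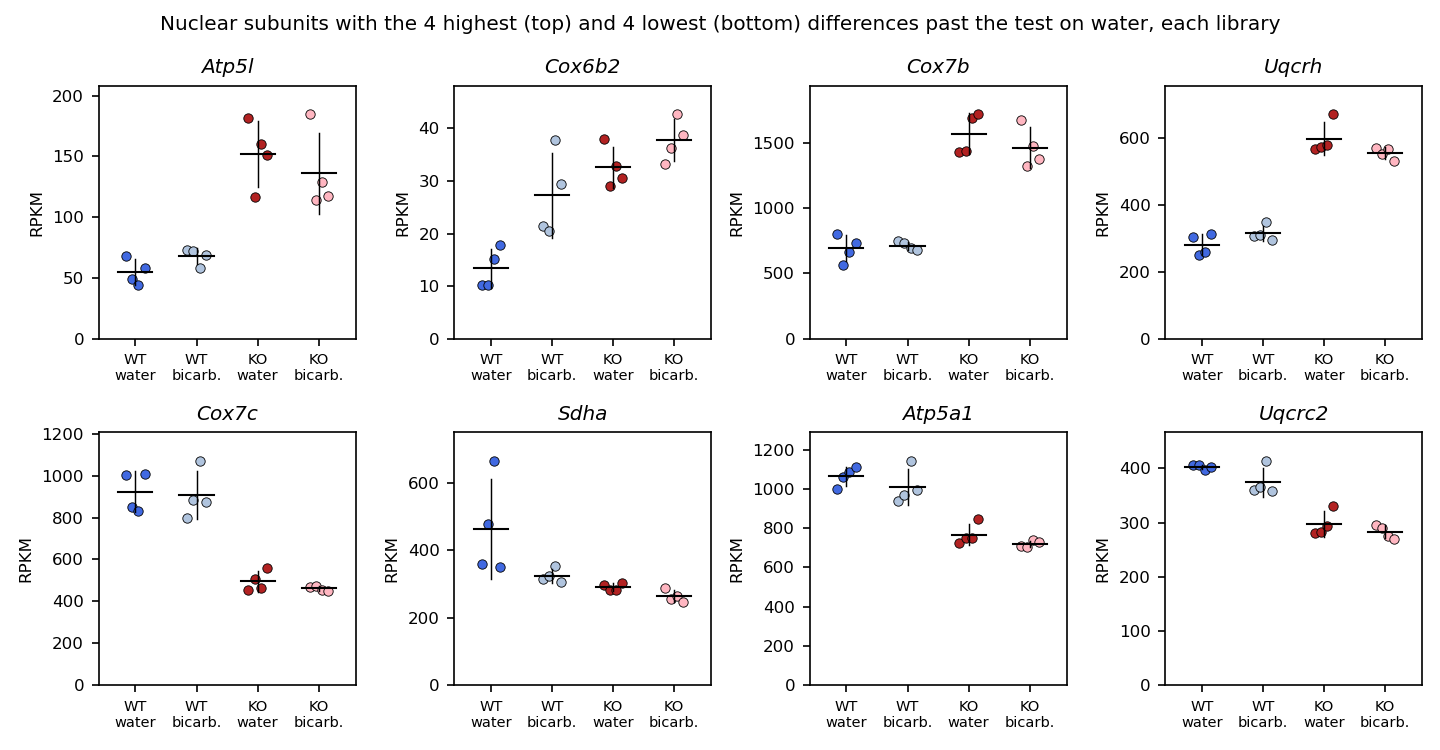
RPKM in each library (points) with group mean and SD for the 4 nuclear subunits with the highest (Atp5l, Cox6b2, Cox7b, Uqcrh) and the 4 with the lowest (Cox7c, Sdha, Atp5a1, Uqcrc2) differences among those that passed on water. Knockout and wild-type libraries on water are apart in all 8 genes, and Cox6b2 is the one whose WT bicarbonate libraries lie above its WT water libraries.

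Most of the higher nuclear members had a short principal transcript in the annotation, with exceptions such as Atp5g1 (4715 nt), Uqcrq (1521 nt) and Atp5d (1410 nt). Which transcript the kidney expressed was not tested. By the principal transcript of the annotation, 16 of the 21 nuclear members of over 0.5 to 1 kb and 3 of the 6 of up to 0.5 kb were higher on water. Among the 14 of over 1 to 2 kb, 4 were higher and 2 lower, and among the 3 of over 2 to 4 kb 0 were higher and 2 lower, while the 1 longer member was higher. Across the 45 nuclear members, Spearman's rho between length and the log2 difference was -0.50 on water and -0.54 on bicarbonate, a description across genes that share their libraries. By the longest transcript it was -0.33 and -0.36. Over all genes tested it was -0.08 on water and 0.08 on bicarbonate by either length. The shortest bins nevertheless held the highest shares of higher genes on water and on bicarbonate among all genes. In the same bins, from the shortest up, 54.0%, 36.8%, 12.1%, 7.49% and 7.05% of all tested genes were higher on water. On bicarbonate the shares were 38.1%, 25.7%, 8.50%, 6.16% and 9.97%, so the longest bin lay above the middle ones. The share of nuclear members of over 0.5 to 1 kb that were higher was 76.2% on water and 47.6% on bicarbonate.

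When a smooth trend with length and GC content was removed from each library, 30 members were higher and 8 lower on water with the longest transcript, and 25 and 8 with the principal transcript. On bicarbonate the counts were 18 and 6, and 17 and 5. Of the higher calls, 24 of 30 on water and 17 of 21 on bicarbonate held under both corrections. Those lost under at least 1 of them were Uqcr11, Cox8a, Cox7a2l, Atp5mpl, Atp5j (0.19 by principal transcript, limma adjusted p = 0.0731) and mt-Atp8 on water, and Uqcr11, Uqcrb, Atp5k and mt-Atp8 on bicarbonate. Calls gained on water under both were Sdhc higher (0.19 and 0.20) and Sdhb (-0.19 in each), Cox4i1 and Cox7a1 lower, and under the longest transcript alone Cox5a (0.35), Atp5e (0.44) and Atp5f1 (0.22) higher. On bicarbonate, the longest transcript alone gained Cox6c higher (0.33) and Atp5mpl lower (-0.22). Among the calls that held were those of Atp5l, Cox7b, Uqcrh, Cox6a1, Cox7a2 and Atp5g3 on both drinks and all 5 lower calls on each. Cox7c is itself short (540 nt) and was lower. Whether RNA integrity or fragment length differed between the genotypes was not tested, since the files give neither.

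**Figure D4:**
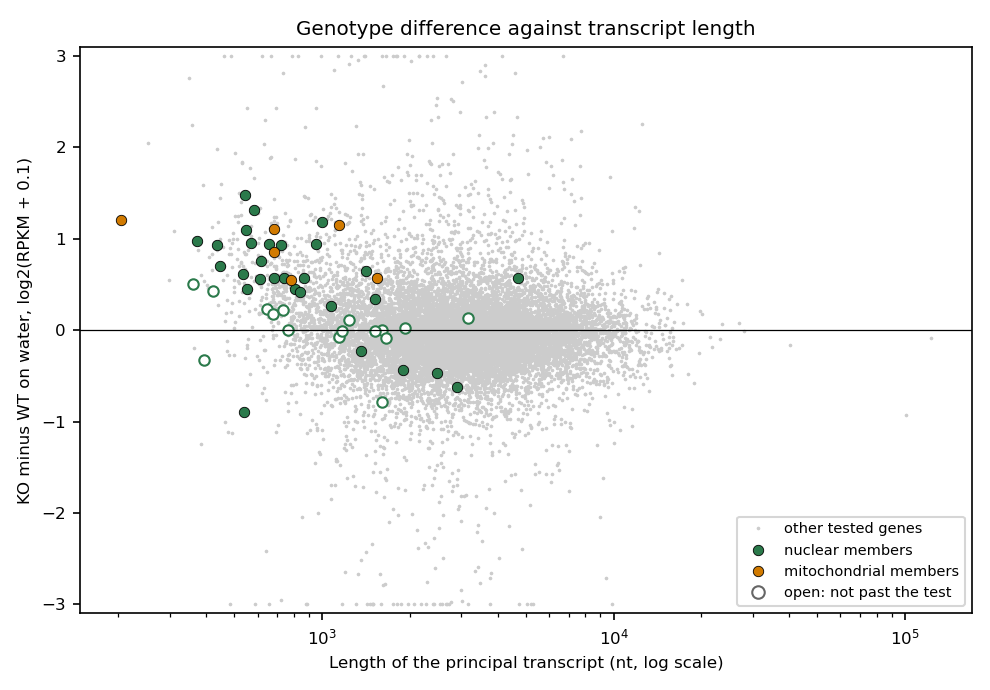
Log2 difference between knockout and wild type on water against the length of the principal transcript (log axis), for nuclear members (green), mitochondrial members (orange) and all other tested genes (grey); open member points did not pass the test and 58 genes beyond 3 on the log2 scale are drawn at the edge. Members under 1 kb lie mostly above 0, as do many grey points of that length, and Cox7c is the short member far below 0.

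Bicarbonate in the drink moved no member past the test. In wild type, 0 of 51 members were higher and 0 lower, where 0.0386% and 0.1% of all genes were (limma, adjusted p under 0.05), and 7 members had an unadjusted p under 0.05. The largest difference was that of Cox6b2, from 13.3 ± 3.78 RPKM in WT water to 27.3 ± 8.09 in WT bicarbonate, with no overlap (log2 difference 1.02, SE 0.20, adjusted p = 0.0610). It passed under quantile normalization (adjusted p = 0.048) and without WT water 4 (adjusted p = 0.042). WT bicarbonate libraries lay wholly above WT water for 2 members, Cox6b2 and Atp5g2 (5.86% of all genes did not overlap, either direction). The 6 mitochondrial members were all slightly lower in mean, from -0.18 to -0.11 on the log2 scale, and none passed.

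In the knockout, 0 members were higher and 0 lower on bicarbonate, against 0.00773% and 0.0155% of all genes, and 14 members had an unadjusted p under 0.05. The estimates nevertheless lay on one side, with 48 of 51 negative and a median of -0.15. Over all genes 6047 of 12943 were negative and the median was 0.01. The members were measured in the same libraries, so their signs are not independent. In wild type 28 were positive and 23 negative, with a median of 0.04. Knockout libraries on bicarbonate lay wholly below those on water for 7 members (5.66% of all genes, either direction), namely Sdhc, Sdhd, Uqcrc1, Uqcr10, Cox8a, Atp5g3 and Atp5k. Uqcr10 had the smallest adjusted p of the members there (0.349), at 455, 467, 521 and 516 RPKM in KO water and 427, 396, 403 and 354 in KO bicarbonate. Its log2 difference was -0.31 (SE 0.09).

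The interaction, the knockout response minus the wild-type response, passed for 0 members, with 0.0155% of all genes above and 0% below in limma, and 13 members had an unadjusted p under 0.05. Its median was -0.20 over the 45 nuclear members, 39 of which were negative, and 0.02 over the 6 mitochondrial members. All groups of this comparison enter the other comparisons too, so the sign is no separate evidence. The difference of the genotype effects between the drinks, such as 30 higher calls on water against 21 on bicarbonate, thus did not pass for any single member.

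**Figure D5:**
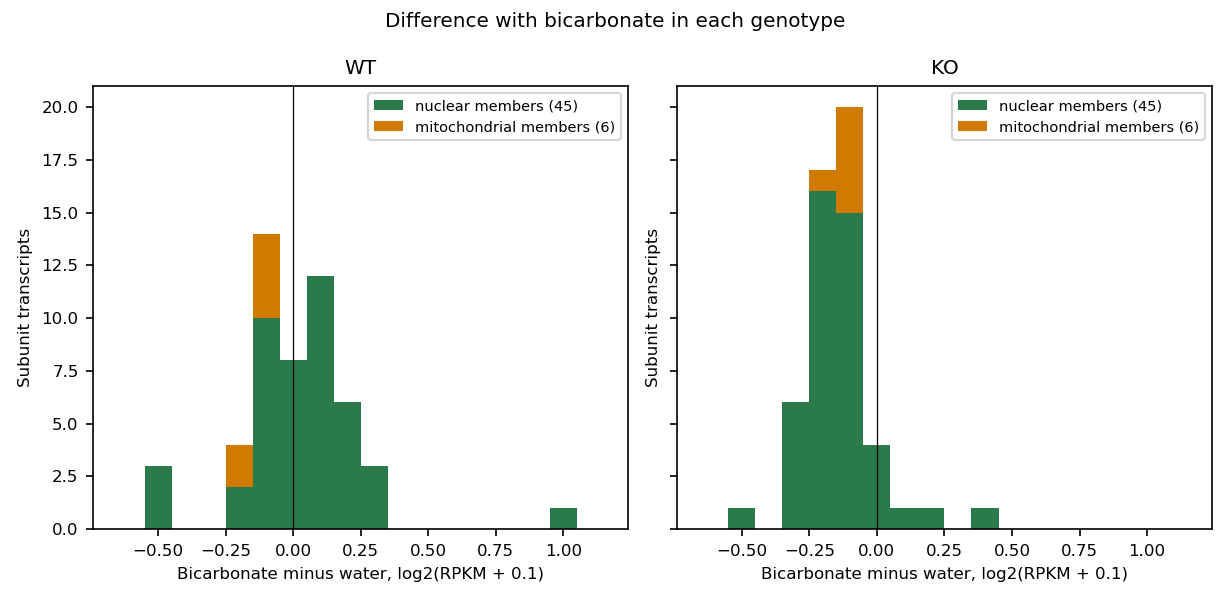
Number of subunit transcripts by log2 difference between bicarbonate and water in wild type (left) and knockout (right), for nuclear (green) and mitochondrial (orange) members. None passed the test; wild-type estimates lie on both sides of 0 with Cox6b2 at the far right, and 48 of 51 knockout estimates are below 0.

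Genes that serve the same complexes had calls in both directions, beside 10.1% higher and 11.8% lower of all genes on water and 9.03% and 9.36% on bicarbonate. Of 37 assembly factors of complexes II to V, 6 were higher and 3 lower on water and 5 were higher and 1 lower on bicarbonate. Means are given from wild type to knockout. Fmc1, which assists ATP synthase assembly, was higher on both drinks (32.3 to 63.9 RPKM on water, log2 difference 0.99, limma adjusted p = 4.44e-05), and Tmem70, which assists assembly of the c ring, was lower on both (46.5 to 31.5, -0.55). Coa7, a complex IV factor, was higher on water (13.3 to 28.8, 1.06), and Sco2, a copper chaperone of complex IV, on bicarbonate. Sco2 had 0.237 ± 0.475 RPKM in WT bicarbonate and 4.87 ± 1.57 in KO bicarbonate, and at a level this low the size of its log2 difference rests on the pseudocount. Of 26 genes for mitochondrial transcription, RNA handling and translation, 4 were higher and 4 lower on water and 2 and 2 on bicarbonate. Slirp and Lrpprc, partners that stabilise mitochondrial mRNA, had opposite signs, with Slirp at 24.0 and 57.2 RPKM on water (1.26, adjusted p = 4.41e-06) and Lrpprc at 47.8 and 35.3 (-0.44, adjusted p = 0.000335). On bicarbonate both passed again, at 0.88 and -0.32. Polrmt, the mitochondrial RNA polymerase, was higher on both drinks (9.28 to 19.5 on water, 1.05; 0.56 on bicarbonate), and Trmt10c, which processes mitochondrial precursor RNA, was lower on both (11.6 to 7.54 on water, -0.62; -0.49 on bicarbonate). Of 10 regulators of mitochondrial biogenesis, Gabpb1, a subunit of the ETS factor GABP, was lower on water (-0.48) and the coactivator Ppargc1a higher on bicarbonate (0.35). No gene of these 3 lists passed with bicarbonate in either genotype.

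The 7 mitochondrially encoded subunits of complex I were higher in the knockout on both drinks, as the 6 members were. Their median log2 difference was 1.21 on water and 1.23 on bicarbonate, and their summed RPKM was 188920 to 221818 in WT water and 371709 to 395716 in KO water.

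Markers of the kidney's cell types were present in every group. Their genotype calls stand beside 10.1% higher and 11.8% lower of all genes on water and 9.03% and 9.36% on bicarbonate. A single call among 6 or 7 genes is little beside these shares. The 12 proximal tubule markers summed to 11954 to 18496 RPKM in WT water, 5774 to 14717 in WT bicarbonate, 14085 to 27197 in KO water and 13599 to 19222 in KO bicarbonate, with 3 higher and 2 lower in the knockout on water. The 5774 was that of WT bicarbonate 3, the library apart on the second principal component, and the others of its group lay at 12186 to 14717. The 6 thick ascending limb markers summed to 1660 to 1968 in WT water and 1360 to 1589 in KO water, without overlap, and to 1465 to 1944 and 1563 to 1766 on bicarbonate, with 1 of the 6 lower in the knockout on each drink. The 7 immune cell markers summed to 90.8 to 130 in WT water and 134 to 158 in KO water, and overlapped on bicarbonate. On water 1 of these 7 was higher, but 3 estimates were positive and 4 negative, with a median log2 difference of -0.055. The 6 pericyte and smooth muscle markers summed to 72.3 to 80.7 in WT water and 82.6 to 102 in KO water, without overlap, with 0 called and all 6 positive, and overlapped on bicarbonate. The 5 haemoglobin genes and markers of blood cells overlapped on water and summed to 811 to 1550 in WT bicarbonate and 234 to 612 in KO bicarbonate, without overlap, with 2 lower and a median log2 difference of -1.40. The 6 intercalated cell markers also overlapped on water and stood apart on bicarbonate, at 132 to 193 in wild type and 113 to 124 in the knockout, with 1 lower. The 193 was again that of WT bicarbonate 3, with the others of its group at 132 to 141. Sums of distal convoluted tubule, collecting duct principal cell, endothelium, podocyte and adipose markers overlapped between the genotypes on both drinks. Muscle markers were nearly absent, with 1 of 9 in the table and its RPKM at most 0.980. The part of these cell types in the genotype differences was not tested.

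Reads of overlapping genes could be shared, since no source used here gives the strand of counting. Of the 51 members, 12 overlap exons of another gene in the table by the annotation, among them Atp5a1 (129 nt with Haus1), Uqcrc2 (504 nt with Pdzd9), Atp5d (68 nt with Cbarp), Atp5j (397 nt with Gabpa), Atp5o (287 nt with Donson) and Cox4i1 (154 nt with Emc8). Atp5c1, Atp5k, Atp5l and Uqcrh have pseudogenes named after them, and 0 of these are in the table.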

How the data were processed

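RNA of 16 mouse kidney slices was sequenced after standard Illumina library preparation, per the labels' protocols. The deposited values are RPKM per gene, which the authors made; the submitters' processing notes list Salmon 1.5.2, edgeR 3.34.0 and the builds GRCm39 and mm10, without roles. The gene lengths behind the RPKM, the strand of counting and the read depth are not given in the sources used here. The numbers of animals per group limit the precision.

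Values were analysed as log2(RPKM + 0.1), a scale that understates the change of low genes. The filter kept the 12943 of 13430 genes that reached an RPKM of 0.5 in 4 or more libraries. limma 3.58.1 in R 4.3.3 was fitted to the 4 group means of all 16 libraries (12 residual degrees of freedom) with trended, robust empirical Bayes variance, two-sided, with Benjamini-Hochberg adjustment over all genes tested and a threshold of 0.05. The genotype comparisons share no libraries with each other but share groups with the bicarbonate comparisons and one variance estimate with all. The script was tested on simulated data. Positions and lengths came from GENCODE M21 (GRCm38).

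Members and lists were chosen with earlier results of these data known. Group values were given for mitochondrial members and, per complex, for the 3 highest and 3 lowest differences among those that passed in each genotype comparison; from each pathway list, up to 3 genes per comparison with the smallest p were named. Other members were named with their values for completeness. Alternatives were pseudocount 1, no filter, the compared groups alone, no trend or robust variance, median-of-ratios, equal nuclear sums, quantile normalization, removal of a length and GC trend (loess span 0.3), a replicate block and each library left out. Removal of the trend by principal transcript was chosen after seeing the data. Same-numbered libraries did not deviate together (correlations from -0.05 to 0.10), so numbers were not treated as pairs.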

Additional observations from a re-analysis of the deposited data

Results flagged for a closer look

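In 13 of the 204 groups of 4 libraries tested, the extreme library lay so far from the others that its gap to the nearest, divided by the range of the group, was above Dixon's 95% critical value. Chance alone gives such a gap in about 5% of groups. WT bicarbonate 3 was the high library for Atp5o (308.2 RPKM, the others 260 to 267), Atp5c1 (442, the others 409 to 412) and Uqcrc2 (415, the others 358 to 366). KO water 4 was high for Atp5b (1999, the others 1654 to 1696), Atp5c1 (497, the others 432 to 439) and Uqcrh (670.4, the others 565 to 578). KO bicarbonate 1 was high for Cox5a (338, the others 248 to 255), Cox6b1 (319, the others 245 to 256) and Uqcrfs1 (177, the others 154 to 158). The low libraries were KO bicarbonate 4 for Cox7a2l (108, the others 124 to 127) and mt-Atp8 (1305170, the others 1502370 to 1529040), WT water 2 for Cox7a2 (135, the others 145.8 to 146.2) and KO water 1 for mt-Cytb (48216, the others 55104 to 56327).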

How the results depend on the processing

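Of the members higher in the knockout, 18 of 30 on water and 11 of 21 on bicarbonate passed under all alternatives run, as did 4 of the 5 lower members on each drink. No mitochondrial member is among those that passed under all. The calls of mt-Cytb, mt-Co1, mt-Co2, mt-Co3 and mt-Atp6 were lost under quantile normalization alone. That method fixes the values of the top ranks by its construction, so it cannot test these genes. With 1 library left out at a time, 28 of 30 and 20 of 21 higher calls and 4 of 5 lower calls on each drink held. Quantile normalization gave 9 lower members on water and 9 on bicarbonate, and 1 member, Cox6b2, higher with bicarbonate in wild type. Leaving out 1 library gave 0 to 1 for that last count. Either length and GC correction gave 8 lower members on water. Direction turned under quantile normalization on water for mt-Co1 (-0.095), mt-Co2 (-0.0086), mt-Co3 (-0.46), mt-Cytb (-0.040) and Atp5f1 (-0.14), and on bicarbonate for mt-Co1 (-0.079), mt-Co3 (-0.46) and mt-Cytb (-0.16). mt-Atp8, the top gene of every library, was numerically at 0 there (-7.11e-15 on water, -3.55e-15 on bicarbonate), which follows from the method. Direction turned with the length and GC trend removed for Cox4i1 on water (-0.31, and -0.28 by principal transcript), Cox8a on water (-0.049 and -0.019), Atp5mpl on bicarbonate (-0.22) and, by principal transcript, Atp5k on bicarbonate (-0.00035). For the mitochondrial members, which hold top ranks, quantile normalization leaves only changes of rank, so their turned signs follow from the method as well. The cause of the other changes was not tested. With a replicate block, 32 members were higher and 5 lower on water and 24 and 5 on bicarbonate. Depth in reads is unknown, so no counting error could be given.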

Other observations

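A list of 16 abundant mitochondrial proteins outside complexes I to V held transport, import and folding proteins, citrate synthase and cytochrome c, among others. Their transcripts had calls in both directions. On water 3 were higher in the knockout and 5 lower, with a median log2 difference of -0.10, where 10.1% and 11.8% of all genes were called, and on bicarbonate 2 were higher and 7 lower, with a median of -0.19, where 9.03% and 9.36% were (limma, adjusted p under 0.05). Partners of one folding machine differed in sign. Hspd1, the large chaperonin, was 269.7 ± 8.14 RPKM in WT water and 196 ± 14.6 in KO water (-0.46, adjusted p = 7.76e-05), and Hspe1, its short co-chaperonin, was 198 ± 18.3 and 304 ± 15.9 (0.62, adjusted p = 0.000287). On bicarbonate they differed by -0.40 and 0.72. Vdac3, an outer membrane channel, was lower on water (94.2 ± 4.46 to 72.2 ± 4.40, -0.38), and Slc25a4, the ADP/ATP carrier of heart and muscle, was lower on bicarbonate (191 ± 13.6 to 146 ± 6.64, -0.38).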
